A study of Mus musculus with 8 samples.

Results

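The CCN genes encode a family of secreted matricellular proteins, which sit in the extracellular matrix and modify how cells respond to it rather than building it. The 5 genes described here are *Ctgf*, *Cyr61*, *Nov*, *Wisp1* and *Wisp2*, now also called *Ccn2*, *Ccn1*, *Ccn3*, *Ccn4* and *Ccn5*. They were found by symbol in the deposited expression table and make up 5 of its 24341 genes. A floor of 0.5 FPKM on the mean of all libraries left 4 of the 5 for testing and took out *Wisp2*. FPKM counts sequenced fragments after scaling for transcript length and for library depth, so levels can be set side by side between genes.

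The libraries are total RNA from single mouse pancreas buds of strain CD1 at E11.0 of embryonic development, 5 of genotype WT and 3 of genotype Lats1/2-null. In the null embryos, both floxed *Lats1* alleles and both floxed *Lats2* alleles are deleted by Cre recombinase under the *Pdx1* promoter, which acts early in pancreatic progenitors. Blood, vessel, nerve and mesenchymal cells in the bud therefore keep both genes. According to the methods, mesenchyme was pulled away with forceps, ribosomal RNA was depleted and libraries were stranded. The methods also name heterozygous littermates among the controls of the study, while the labels of these 5 buds give WT.

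LATS1 and LATS2 are the kinases of the Hippo pathway that phosphorylate YAP1 and TAZ and keep them out of the nucleus. Nuclear YAP1 and TAZ bind TEAD factors on DNA, and *Ctgf* and *Cyr61* are the target genes most often used as a readout of that activity. *Wisp1* and *Wisp2* were named as genes induced by WNT1, and *Nov* was found as a gene overexpressed in a kidney tumour. CCN proteins share a modular build, with domains related to IGF binding proteins, von Willebrand factor and thrombospondin. A C-terminal module closes the others and is missing from *Wisp2*. They bind integrins, heparan sulfate proteoglycans and growth factors.

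For each gene, 1 transcript was read from the GENCODE M21 annotation of GRCm38, and all 5 of these have 5 exons. *Ctgf* has 3 annotated transcripts, *Wisp1* 6 and *Wisp2* 2. In the coordinates of the table, *Ctgf* lies at chr10:24595442-24598682, *Cyr61* at chr3:145646971-145649985, *Nov* at chr15:54745928-54753761, *Wisp1* at chr15:66891393-66923199 and *Wisp2* at chr2:163820834-163833147. *Nov* and *Wisp1* share a chromosome. The coding sequence is 1044 bases long in *Ctgf*, 1137 in *Cyr61*, 1062 in *Nov*, 1101 in *Wisp1* and 753 in *Wisp2*. Between pairs of the family, 59.4% to 66.3% of aligned coding bases are identical, and no pair of these 5 transcripts shares a stretch longer than 28 bases.

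The stretch below is the longest coding run that *Ctgf* and *Cyr61* share, and is shown because both are YAP/TAZ targets. Each line covers 42 bases, coding positions 138 to 179 of *Ctgf* and 129 to 170 of *Cyr61*, read from the GENCODE M21 transcripts. Capitals mark the 18 identical bases, which begin at position 150 of *Ctgf* and 141 of *Cyr61*. They encode part of the IGF binding protein module near the start of the protein.
Ctgf: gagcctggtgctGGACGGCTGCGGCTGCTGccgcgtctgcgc
Cyr61: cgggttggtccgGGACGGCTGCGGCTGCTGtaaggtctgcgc
A run of 18 bases is shorter than a sequencing read.

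The promoter of *Cyr61* was matched in RefSeq (build GRCm38.p6, 1 of 5 members matched) and is shown because the gene is a TEAD target. It covers the 250 bases before the transcription start, chr3:145649986-145650235 on the minus strand. Capitals mark CATTCC, the reverse complement of GGAATG, the core that TEAD factors bind. Both strands were searched.
Cyr61: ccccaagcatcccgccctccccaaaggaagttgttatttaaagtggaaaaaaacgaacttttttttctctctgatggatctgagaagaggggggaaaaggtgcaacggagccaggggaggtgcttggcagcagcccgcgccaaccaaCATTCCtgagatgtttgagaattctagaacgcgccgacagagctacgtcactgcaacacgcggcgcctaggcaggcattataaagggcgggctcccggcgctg
The match begins 103 bases before the start, and a TATAAA box begins 25 bases before it. GGAATG or CATTCC occurs in 12.6% of 32851 mouse promoters cut to the same 250 bases, so the match is a description and not evidence of a bound site. Among 20 other YAP/TAZ target genes, 14 had a promoter in the table and 5 of those held the motif in at least 1 promoter. That count is by gene and the 12.6% is by promoter, so they cannot be set side by side.

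The deleted genes served to check the labels. *Lats1* was 15.6 ± 0.905 FPKM (SD, n = 5) in WT and 12.1 ± 1.87 FPKM (n = 3) in null buds, with every null library below every WT library, as in 3.06% of tested genes. *Lats2* was 13.8 ± 1.26 and 12.3 ± 1.15 FPKM, with overlapping groups. Neither passed limma's test over all genes (log2 fold changes -0.35 and -0.16, adjusted p = 0.269 and 0.589). FPKM cover whole transcripts, so reads over deleted exons cannot be set apart from those of cells without Cre.

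Libraries resembled each other across tested genes (Pearson's r from 0.926 to 0.965, across genes that are not independent replicates), but 1 WT library stood apart in several genes that matter here. In WT replicate 5, low FPKM values were 1.28 times those of WT replicate 1, against 0.97 to 1.04 times for the remaining 6, which corresponds to fewer fragments in that library if the values were not rescaled. Low values of single-exon genes gave a rough scale of about 10 to 26 fragments behind *Nov* in a WT library and 73 to 513 behind *Cyr61*. Few genes lay on those steps, so the fragment numbers are approximate and no counting interval is given.

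*Ctgf*, which encodes a matrix protein known from wound healing and fibrosis, was higher in null buds. Its level was 2.77, 2.98, 3.99, 4.06 and 4.32 FPKM in WT replicates 1 to 5 and 7.90, 8.36 and 15.8 FPKM in null replicates 1 to 3. The lowest null library lay above the highest WT library, and null replicate 3 was nearly double the other null buds. The means were 3.63 ± 0.699 FPKM (SD, n = 5) and 10.7 ± 4.43 FPKM (SD, n = 3), a ratio of 2.95.

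On the log2(FPKM + 1) scale, which understates changes of low genes, the fold change of *Ctgf* was 1.29 with a standard error of 0.22 (95% interval 0.79 to 1.79). limma's adjusted p was 0.109, so *Ctgf* missed the threshold of 0.05, though it ranked 30 of 13777 genes by unadjusted p (0.000248). The exact two-sided permutation test over the 56 ways to assign the genotypes gave 0.0179, the smallest p that 5 against 3 libraries allow. Among all tested genes, 4.46% were higher in null buds without overlap.

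*Cyr61*, an immediate-early gene whose protein promotes adhesion and migration through integrins, was higher in null buds than in WT buds with 1 exception. It stood at 6.30, 5.73, 3.83, 3.88 and 33.7 FPKM in WT replicates 1 to 5 and at 9.85, 10.8 and 22.9 FPKM in the null replicates. WT replicate 5 held the highest level of all 8 buds, and the other 4 WT libraries all lay below every null library. Null replicate 3 was again the highest null bud.

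With 8 libraries, *Cyr61* averaged 10.7 ± 12.9 FPKM in WT and 14.5 ± 7.30 FPKM in null buds. The log2 fold change was 0.80 with a standard error of 0.61, and its interval of -0.59 to 2.19 covers both no change and a change larger than that of *Ctgf* (limma adjusted p = 0.681, exact permutation p = 0.286). Without WT replicate 5, the WT mean was 4.94 ± 1.27 FPKM (n = 4), the ratio of means was 2.94 against 1.36 with 8 libraries, and the log2 fold change was 1.31 with a standard error of 0.29. The adjusted p was then 0.279 in limma, and the exact permutation p was 0.0286, the smallest that 4 against 3 allow. WT replicate 5 was left out for its own *Cyr61* value. The lack of overlap, this p and the larger ratio follow from that choice and are a description, not a test. Without that library 5.81% of tested genes were higher in null buds with no overlap.

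**Figure D1:**
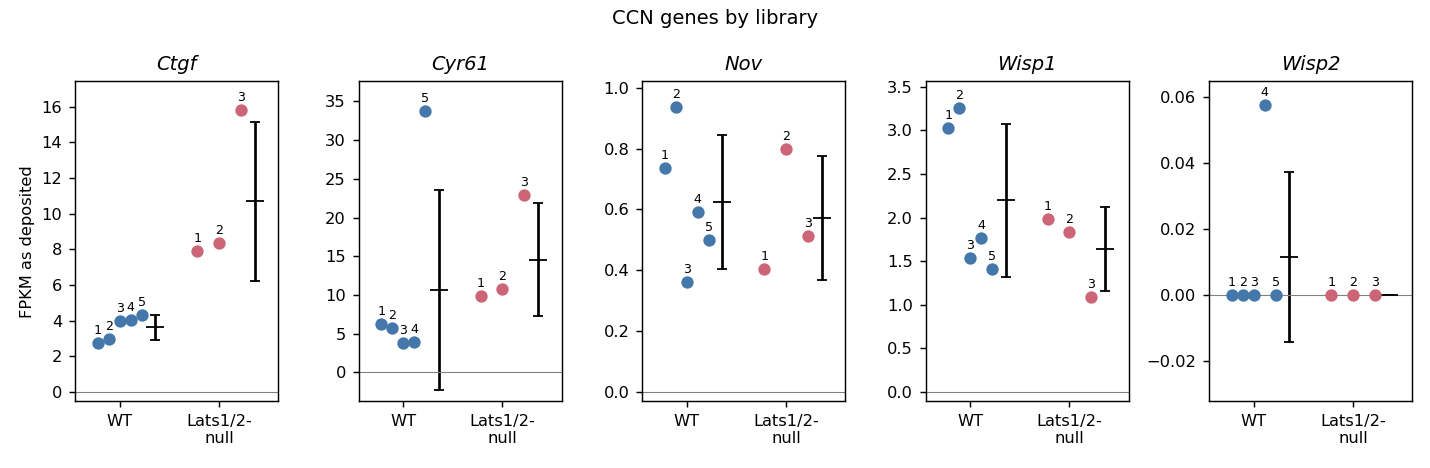
FPKM as deposited for each of the 5 CCN genes in 5 WT (blue) and 3 Lats1/2-null (red) libraries, numbered by replicate; the black marks give mean and SD, and each panel has its own scale. All null values of *Ctgf* (7.90 to 15.8) lie above all WT values (2.77 to 4.32), while *Cyr61* is highest in WT replicate 5 (33.7).

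*Nov* encodes a member often described as restraining proliferation. Its values were 0.737, 0.936, 0.361, 0.590 and 0.501 FPKM in WT and 0.406, 0.799 and 0.514 FPKM in null libraries. The groups lay within the same range, and the log2 fold change was -0.044 with an interval of -0.42 to 0.33 (limma adjusted p = 0.948, exact permutation p = 0.75).

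*Wisp1*, a gene expressed in osteoblast and fibroblast lineages, was measured at 3.02, 3.26, 1.53, 1.76 and 1.41 FPKM in WT and at 1.99, 1.83 and 1.09 FPKM in null buds. WT replicates 1 and 2 were the highest and null replicate 3 the lowest, with the rest interleaved. The log2 fold change was -0.25 with an interval of -0.78 to 0.28 (limma adjusted p = 0.746, exact permutation p = 0.357).

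*Wisp2* is listed at 0 in 7 libraries and at 0.0575 FPKM in WT replicate 4, which corresponds to about 1 fragment. No fold change is given for it. The sixth gene of the family, *Wisp3*, was not a member of the set and fell under the filter, with 0.0979 to 1.01 FPKM in WT and 0.147 to 0.710 FPKM in null buds.

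Of the 5 CCN genes, 0 had an adjusted p under 0.05 in limma, where 2 of 13777 tested genes did (0.0145%), and 1 had an unadjusted p under 0.05. That gene was *Ctgf*, higher in null buds, as were 6.29% of all tested genes at that level, with 4.99% lower. Without null replicate 3 the log2 fold change of *Ctgf* was 0.99 (adjusted p = 0.123) and that of *Cyr61* 0.44. *Ctgf* kept its lack of overlap in that case, which 5.53% of tested genes shared.

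**Figure D2:**
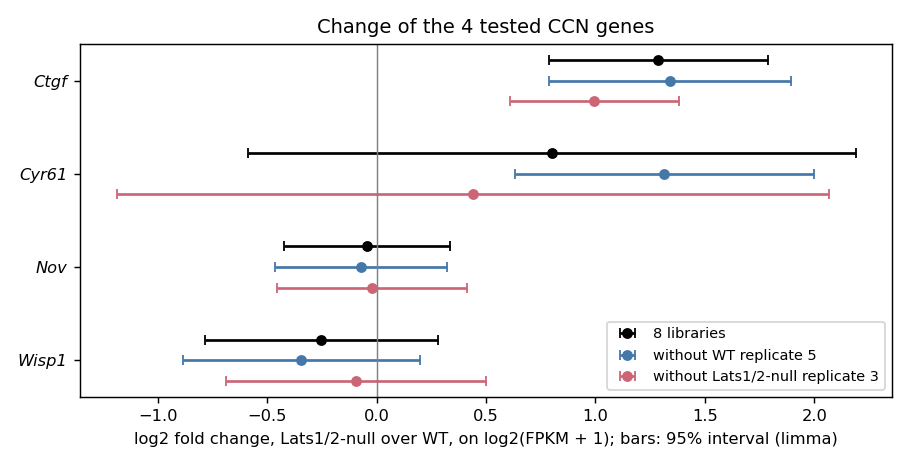
log2 fold changes of the 4 tested CCN genes with 95% intervals from limma, for 8 libraries, without WT replicate 5 and without Lats1/2-null replicate 3. The interval of *Ctgf* stays above 0 in each case, and those of *Nov* and *Wisp1* span 0 throughout. That of *Cyr61* stays above 0 only without WT replicate 5, which was left out for its own *Cyr61* value.

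The order of levels was read within libraries. *Wisp1* exceeded *Nov*, and *Nov* exceeded *Wisp2*, in all 8 buds. *Cyr61* exceeded *Ctgf* in the 3 null buds and in WT replicates 1, 2 and 5, while in WT replicates 3 and 4 *Ctgf* was slightly ahead. *Ctgf* exceeded *Wisp1* in every bud except WT replicates 1 and 2.

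The summed level of the 5 genes was 12.8, 12.9, 9.72, 10.4 and 39.9 FPKM in the WT libraries and 20.1, 21.8 and 40.3 FPKM in the null libraries. *Cyr61* alone supplied 84.4% of the sum in WT replicate 5, against 37.5% to 49.1% in the other WT buds and 48.9% to 56.9% in null buds. *Ctgf* made up 10.8% to 41.1% of the sum in WT and 38.4% to 39.2% in null buds. The share of *Wisp1* was 3.53% to 25.2% in WT and 2.70% to 9.87% in null buds, so the ranges overlap.

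**Figure D3:**
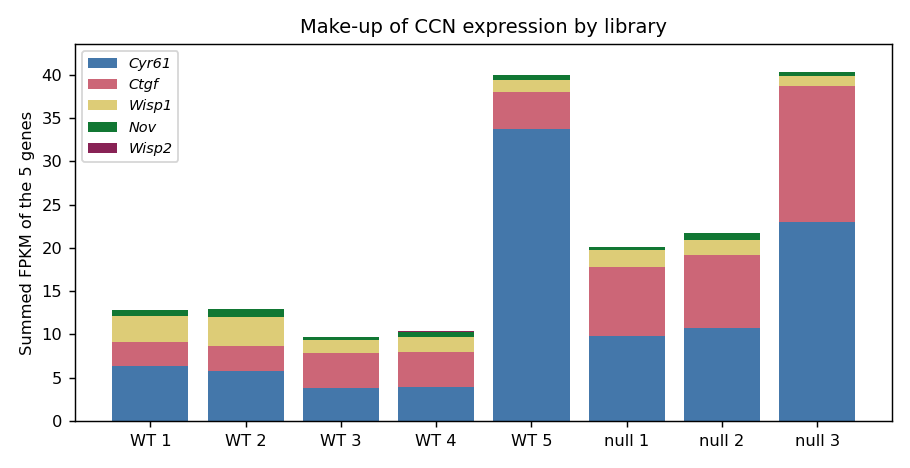
FPKM of the 5 CCN genes stacked for each library, WT on the left and null on the right. WT replicate 5 (39.9 FPKM in sum) and null replicate 3 (40.3 FPKM) reach nearly the same height, the former with 84.4% from *Cyr61*.

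Whether members differed in their change was tested on the difference of log2(FPKM + 1) within each library, over 10 pairs. The 4 pairs with *Wisp2*, which is at 0 in 7 libraries, only restate the change of the other gene and are not read further. The excess of *Ctgf* over *Nov* was larger by 1.33 in null than in WT buds and that over *Wisp1* by 1.54. The exact permutation p was 0.0179 for each, and 0.0595 adjusted over the 10 pairs. *Nov* had at most 0.936 FPKM, where this scale understates changes, so its pair with *Ctgf* mostly restates the change of *Ctgf* (1.29). For *Ctgf* against *Cyr61* the difference was 0.49 (exact permutation p = 0.607). Without WT replicate 5 it was 0.027 (exact permutation p = 0.914), and the 4 pairs of *Ctgf* or *Cyr61* with *Nov* or *Wisp1* each had an exact permutation p of 0.0286 (adjusted 0.0476). That library was singled out by its own *Cyr61* value, and with all 8 libraries the pairs of *Cyr61* with *Nov* and *Wisp1* had an adjusted permutation p of 0.459.

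Across the 8 libraries, log2 values of *Ctgf* and *Cyr61* had a Pearson's r of 0.54, and of 0.89 across the 7 without WT replicate 5, where the genotypes themselves set much of the spread. *Nov* and *Wisp1* had an r of 0.69 over 8 libraries. These are descriptions, since all points share their library.

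Genes most like each member across the 8 libraries were ranked by Pearson's r, leaving out genes that averaged under 2 FPKM. For *Ctgf* they were *Wfdc2* (0.989), *Bex1* (0.987) and *Phldb1* (0.979), whose levels were all highest in null replicate 3. *Cyr61* was followed by *Ssr4* (0.978), *Ccdc157* (0.971) and *Zfat* (0.968), each highest in WT replicate 5. The genes nearest to *Nov* were *Extl2*, *Tcaf2* and *Mir3102*, with r from 0.913 to 0.935. *Wisp1* was most like *Pdgfrb* (0.974), a receptor of mesenchymal cells and pericytes, *Jak1* (0.966) and *Sncaip* (0.965). For *Wisp2* the ranking (*Mir3101*, *Abracl*, *Uqcrfs1*) shows only which genes are high in WT replicate 4.

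*Cyr61* belongs to the immediate-early genes, which are switched on within minutes of a stimulus. Of 16 tested genes of that class, WT replicate 5 was the highest of all 8 libraries in 8, or 50%, against 22.4% of all tested genes. The same library was the highest in 58.3% of 12 endothelium markers and 53.8% of 13 TGF-beta genes. It stood clear of the other WT buds in 5 of the 16, against 2.81% of all tested genes. These 5, named after their values were seen, were *Junb* at 9.29 FPKM (at most 2.84 in any other library), *Dusp1* at 13.5 (at most 5.53), *Zfp36* at 8.19 (at most 4.34), *Ier3* at 4.52 (at most 1.16) and *Fos* at 2.22 (at most 0.719). Other genes of the class went the other way in WT replicate 5. *Klf2* at 1.34 FPKM (at least 2.68 in any other library) and *Myc* at 15.9 (at least 18.6) were lowest there. *Vegfa*, a growth factor that CTGF binds, was highest in WT replicate 5, at 74.3 FPKM against at most 43.6. Whether the *Cyr61* value of this library is tied to these genes was not tested.

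Between genotypes the median change of the immediate-early genes was -0.041 on the log2 scale, beside -0.012 for all tested genes, and 0 passed limma's test. At an unadjusted p under 0.05, 3 of 16 were higher and 0 lower, beside 6.29% and 4.99% of all tested genes. *Jun* was 34.6 ± 9.67 FPKM in WT and 66.8 FPKM on average in null buds (log2 fold change 0.88), *Ier2* had a log2 fold change of 0.19 and *Klf6* of 0.47.

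**Figure D4:**
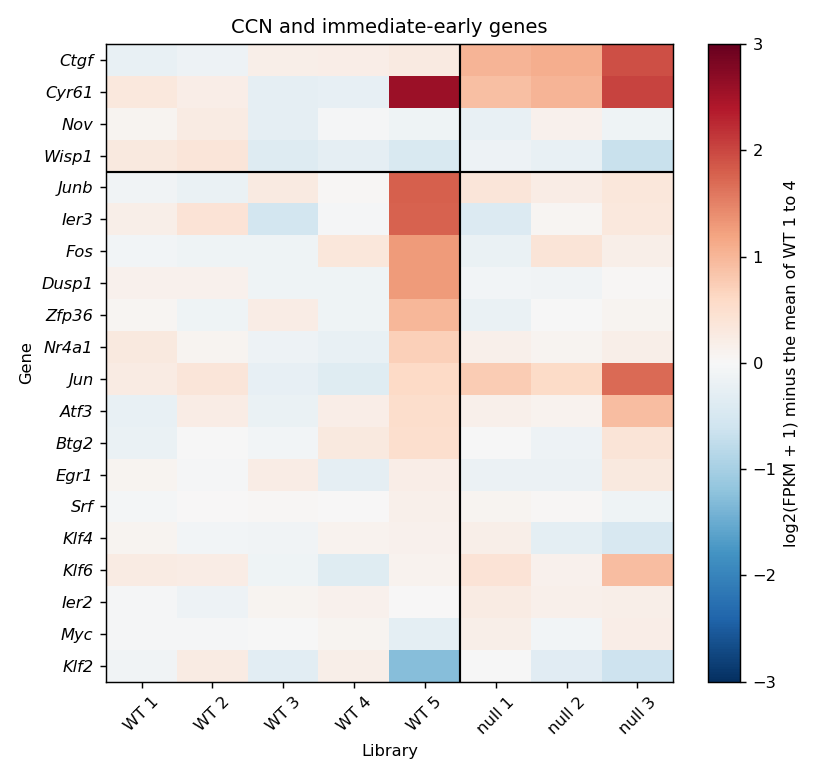
log2(FPKM + 1) of the 4 tested CCN genes (above the line) and 16 immediate-early genes (below it) in each library, as the difference from the mean of WT replicates 1 to 4. WT replicate 5 is raised in *Cyr61*, *Junb*, *Ier3*, *Fos* and *Dusp1* and much less in *Ctgf*, and null replicate 3 in *Ctgf*, *Cyr61* and *Jun*.

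Other YAP/TAZ target genes were measured in the same buds. Of 19 tested, 0 passed limma's test. At an unadjusted p under 0.05, 6 were higher and 4 lower, beside 6.29% and 4.99% of all tested genes. The median log2 fold change was 0.060. It includes *Lats2* (-0.16), which is itself deleted in the null buds. *Ankrd1*, a nuclear ankyrin repeat protein of stressed muscle, is listed at 0 in 4 WT libraries and at 0.0619 FPKM in WT replicate 3, and reached 2.29, 2.31 and 8.81 FPKM in null buds (adjusted p = 0.0743 in limma). *Myof*, a membrane repair protein, was 0.918 to 1.89 FPKM in WT and 2.78 to 13.8 in null buds, and *Amotl2*, an inhibitor of YAP1, 26.3 to 37.0 and 40.9 to 62.2 FPKM. Both were higher in null buds without overlap, beside 4.46% of tested genes, and limma's adjusted p were 0.196 and 0.222. *Igfbp3*, also a list member, ran the other way, at 54.8 ± 17.2 FPKM in WT and 34.3 in null buds (adjusted p = 0.351 in limma). Its groups overlapped. Of the 19 genes, 5 were higher and 2 lower without overlap, beside 4.46% and 3.06% of all tested genes. The 2 lower ones were *Crim1* (log2 fold change -0.29) and *Ccdc80* (-0.57).

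Among receptors and partners of CCN proteins, the differences were small. Of 21 tested, 0 passed limma's test, and the median difference was 0.029 (log2). At an unadjusted p under 0.05, 2 were higher and 0 lower, beside 6.29% and 4.99% of all tested genes. *Fgfr2*, a receptor of epithelial cells that binds CTGF, was 14.7 to 21.9 FPKM in WT and 24.1 to 35.4 in null buds (adjusted p = 0.230 in limma). The heparan sulfate proteoglycan *Sdc4* had a log2 fold change of 0.40 and the receptor *Notch1*, which NOV can bind, of 0.41.

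Pathways that induce CCN genes were read next. Of 13 tested TGF-beta ligands, receptors and targets, all 13 had a lower mean in null buds, as 7316 of 13777 tested genes did. The median log2 fold change was -0.18, and 0 passed limma's test. At an unadjusted p under 0.05, 4 were lower and 0 higher, beside 4.99% and 6.29% of all tested genes. *Ltbp1*, which stores latent TGF-beta in the matrix, was 15.1 to 19.8 FPKM in WT and 11.2 to 13.2 in null buds, *Tgfbr3* 8.71 to 11.3 and 5.11 to 8.36, and *Tgfb2* 18.5 to 31.7 and 16.5 to 21.3.

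Wnt feedback targets, which report the pathway for which the WISP genes are named, numbered 9 after the filter, and their median difference was -0.056 (log2). At an unadjusted p under 0.05, 1 was higher and 0 lower, beside 6.29% and 4.99% of all tested genes, and 0 passed limma's test. That gene was *Rnf43*, a ligase that removes Wnt receptors, with 0.472 to 0.966 FPKM in WT and 1.27 to 4.83 in null buds. *Kremen1* and *Nkd1* had log2 fold changes of 0.23 and -0.17.

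Epithelium markers were higher in the same libraries as *Ctgf*. Of 13 epithelium markers, 0 passed limma's test over all genes, 11 were higher and 0 lower at an unadjusted p under 0.05, beside 6.29% and 4.99% of all tested genes, and 11 were higher without overlap, beside 4.46%. Their median log2 fold change was 1.19, and their summed level was 251 to 325 FPKM in WT and 482 to 1146 FPKM in null buds. The claudins *Cldn3*, *Cldn4* and *Cldn6* had log2 fold changes of 1.70, 1.35 and 1.46. In all, 12 markers had a positive change and 1 a negative one, *Ptf1a* (-0.15), whose groups overlapped. Null replicate 3 was the highest library in 12 of the 13 markers, as in 20.5% of all tested genes. It was also the highest in 7 of 7 liver markers and 7 of 10 nerve and neural crest markers. In bulk RNA, fewer cells of a type and less RNA per cell cannot be told apart.

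Mesenchyme and endothelium markers had lower medians in null buds. Of 16 mesenchyme markers, 4 were lower and 1 higher at an unadjusted p under 0.05, beside 4.99% and 6.29% of all tested genes. Their median log2 fold change was -0.42, with a sum of 1129 to 1297 FPKM in WT and 909 to 1162 FPKM in null buds. *Pdgfra*, *Foxf1* and *Col3a1* had log2 fold changes of -0.90, -0.95 and -0.62. In all, 14 markers had a negative change and 2 a positive one, *Vim* (0.27) and *Prrx1* (0.61). Of 12 endothelium markers, 3 were lower and 0 higher at that level, beside the same shares of all tested genes (4.99% and 6.29%). Their median was -0.38, with sums of 172 to 282 and 122 to 189 FPKM, WT replicate 5 being the highest. *Emcn*, *Tek* and *Tie1* were at -0.56, -0.71 and -0.45. No marker in either list passed limma's test.

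The other marker lists also held 0 genes past limma's test. For 6 tested mesothelium markers the median difference was -0.41 (log2), with *Lrrn4* and *Bnc1* at -0.78 and -0.81, and *Krt19*, also a duct epithelium gene, at 2.36. Smooth muscle and pericyte markers had a median of -0.27 over 6 genes (*Abcc9* -0.50, *Cspg4* -0.37, *Rgs5* -0.48). The 7 red blood cell markers (*Slc4a1*, *Hba-a1* and *Alas2* among them) had a median of 0.49 and summed to 2630 to 15746 FPKM in WT and 7956 to 10152 FPKM in null buds. The median was 0.12 for 7 leukocyte markers. Of these, 4 had a positive change (*C1qb* 0.44, *Lyz2* 0.46 and *Mrc1* 0.22 among them) and 3 a negative one (*C1qa* -0.072, *Ptprc* -0.046, *Csf1r* -0.031). For 10 nerve and neural crest markers the median was 0.31. There 7 had a positive change (*Erbb3* 1.15, *Sox10* 0.71 and *Foxd3* 0.46 among them) and 3 a negative one (*Stmn2* -0.49, *Ednrb* -0.26, *Elavl4* -0.020). The 7 liver markers had a median of 0.50 (*Afp* 1.23, *Serpina1a* 0.50). The paper also lists *Afp* among known TEAD targets.

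Taken relative to the mean log2 value of the 13 epithelium markers of the same bud, a measure chosen after seeing the data, *Ctgf* was -1.86 ± 0.356 in WT and -1.67 ± 0.165 in null buds. The difference was 0.19 and the exact permutation p was 0.429. *Cyr61* differed by -0.29 on this scale (exact permutation p = 0.964), and by 0.25 without WT replicate 5 (exact permutation p = 0.143). The 13 markers include *Sox9* (log2 fold change 1.25), which the paper lists among known TEAD targets. A marker raised by the deletion itself lowers the differences on this scale, and how many markers are so raised was not tested. With the mesenchyme marker mean as a covariate in limma, the log2 fold change of *Ctgf* was 0.67. How much of the level of *Ctgf* or *Cyr61* came from epithelial cells was not tested.

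**Figure D5:**
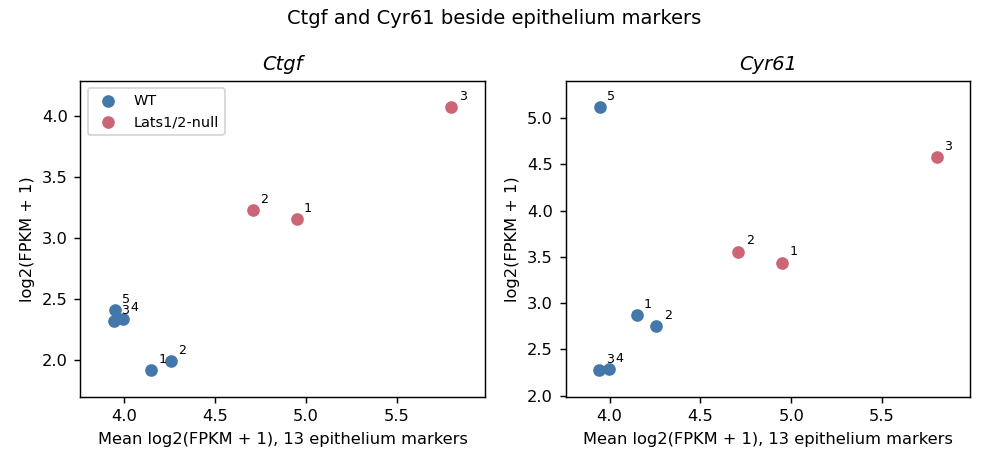
log2(FPKM + 1) of *Ctgf* (left) and *Cyr61* (right) against the mean log2(FPKM + 1) of 13 epithelium markers, a point for each library, numbered by replicate. The 3 null buds lie to the upper right in both panels, and WT replicate 5 lies far above the other WT buds only for *Cyr61*.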

How the data were processed

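The authors aligned stranded paired-end reads to mm10 with TopHat2 2.1.0 and deposited FPKM per gene from the Cufflinks suite (2.2.1). The methods state quantile normalization, but the distribution differs between the deposited columns, which were used unchanged. FPKM carry no counts and no count model was used, so precision rests on 5 and 3 libraries. Genotype and replicate came from the labels, which do not say whether buds shared a litter.

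limma 3.58.1 (R 4.3.3) compared genotypes on log2(FPKM + 1), fitting a mean-variance trend, over the 13777 genes that averaged 0.5 FPKM or more, with Benjamini-Hochberg adjustment and a threshold of 0.05. The code was tested on simulated data. Permutation tests were exact and two-sided. Members and gene lists were chosen with earlier results of these data known. Named genes are the members, *Wisp3*, *Lats1*, *Lats2*, the 3 genes of smallest p in each list and the 3 most like each member. Of these, 1 liver gene was left out. Added were genes stated to be chosen after their values were seen, *Sox9*, and list members given to show the other direction. Sequences came from GENCODE M21 and RefSeq. Alternatives were other pseudocounts, filters and scalings, array weights, no trend, a replicate block, marker covariates and each library left out.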

Additional observations from a re-analysis of the deposited data

Results flagged for a closer look

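Of 77 genes examined, 16 had a WT library that lay far from the other 4 by Dixon's test, which chance alone gives in about 5% of groups. Of these, 11 were in WT replicate 5, but 8 of those genes were picked for being high in that library or for their likeness to *Cyr61*. *Cyr61* was 33.7 FPKM in WT replicate 5, against 3.83 to 6.30 FPKM in the other WT buds. In the same library *Lats2* was the lowest at 11.6 FPKM (others 14.0 to 14.7) and *Spp1*, which encodes osteopontin, the highest at 8.78 FPKM (others 2.73 to 4.36). *Krt19* was lowest in WT replicate 3, at 2.13 FPKM (others 3.55 to 4.05). *Wisp2* at 0.0575 FPKM in WT replicate 4 and *Ankrd1* at 0.0619 FPKM in WT replicate 3 were above 0 where the other 4 WT libraries were listed at 0.

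The genes picked in this way are given with their level in WT replicate 5. *Ssr4* was 65.4 FPKM (others 49.3 to 52.1) and *Zfat* 6.54 FPKM (others 3.91 to 4.53). *Junb* was 9.29 FPKM (others 1.58 to 2.54), *Dusp1* 13.5 FPKM (others 4.43 to 5.53) and *Zfp36* 8.19 FPKM (others 3.18 to 4.34). *Ier3* was 4.52 FPKM (others 0.107 to 1.16), *Fos* 2.22 FPKM (others 0.203 to 0.673) and *Vegfa* 74.3 FPKM (others 24.4 to 38.6). Ranked by likeness to *Wisp2*, *Mir3101* was 175 FPKM in WT replicate 4 and listed at 0 in the other WT buds, and *Abracl* was 57.1 FPKM there (others 41.2 to 43.4).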

How the results depend on the processing

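*Ctgf* kept its direction under all alternatives run and passed limma's threshold only with array weights (log2 fold change 1.13, adjusted p = 0.0213), which made it the 1 CCN gene called. Leaving out each library in turn gave *Ctgf* 0.99 to 1.45 (limma adjusted p from 0.0739 to 0.308), *Cyr61* 0.44 to 1.31, *Nov* -0.14 to 0.033, *Wisp1* -0.35 to -0.094, *Lats1* -0.45 to -0.24 and *Lats2* -0.22 to -0.095, with 0 CCN genes called. *Nov* changed sign without WT replicate 2 (0.022) and without null replicate 1 (0.033). With the mesenchyme covariate *Nov* was 0.10 and *Wisp1* 0.15, both of opposite sign, while *Ctgf* was 0.67, *Lats1* -0.083 and *Lats2* -0.075. *Cyr61* relative to the epithelium markers was -0.29, of opposite sign. With the mesenchyme and endothelium covariates it was 0.46 and 1.41. A fit of all genes on that relative scale was set aside, since it shifts every gene by the marker difference. The ratio of mean FPKM of *Cyr61* was 2.94 without WT replicate 5 and 0.964 without null replicate 3, and *Wisp1* had a ratio of medians of 1.04. The cause of these differences was not tested. Over all genes, 18 were called with a pseudocount of 0.1, 174 with array weights, 1 with no trend, 0 with the endothelium covariate and 0 to 19 with a library left out, against 2. The replicate block, in which WT replicates 4 and 5 carry no weight, gave *Ctgf* 1.41 (limma adjusted p = 0.451) and called 1 gene. Buds of the same number did not deviate together (correlations 0.0855, -0.0969 and 0.0685). A minimum mean of 2 FPKM removes *Nov* and *Wisp1*. *Nov* and *Wisp2* rest on the fewest fragments.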

Other observations

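Other matricellular genes were measured beside the CCN family. Of 11 tested, 3 were higher and 1 lower at an unadjusted p under 0.05, beside 6.29% and 4.99% of all tested genes. None passed limma's test, and the median log2 fold change was 0.053. *Spp1* was 3.73, 4.36, 3.23, 2.73 and 8.78 FPKM in WT and 61.3, 32.1 and 138 FPKM in null buds (log2 fold change 3.66, limma adjusted p = 0.0631). *Smoc1*, which encodes a basement membrane protein, was 13.2 to 16.6 FPKM in WT and 17.3 to 29.6 in null buds. *Tnc*, the mesenchymal matrix protein tenascin C, was 61.2 to 82.6 FPKM in WT and 19.3 to 66.4 in null buds.

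The Igfbp genes, whose proteins share a domain with the CCN family, gave 5 tested genes with a median difference of -0.41 (log2). At an unadjusted p under 0.05, 2 were lower and 0 higher, beside 4.99% and 6.29% of all tested genes, and 0 passed limma's test. *Igfbp3* had a log2 fold change of -0.64, *Igfbp4* of -0.41 and *Igfbp7* of 0.58. In *Igfbp7* the value rests on null replicate 3, at 7.72 FPKM, while the other null buds lay within 1.74 to 2.17 FPKM.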
